A study of Oryctolagus cuniculus with 6 samples.

Results

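AP-1 and the other immediate early transcription factors were examined in the retinas of rabbits with proliferative vitreoretinopathy (PVR), a scarring disease of the eye that follows retinal detachment or trauma. The set was fixed by gene name as FOS, FOSB, FOSL1, FOSL2, JUN, JUNB, JUND, EGR1, MYC and NR4A1, and a member was taken from the deposited tables where a row carried exactly that symbol. Of these 10 genes, 8 were found among the 28788 genes of the tables, and all 8 passed the filter on low counts that left 18697 genes. FOSB and JUND were not matched to a row and are not analysed here. Retinal polyadenylated RNA was sequenced from 3 samples labelled normal and 3 labelled PVR. In the PVR eyes of adult rabbits the sclera was punctured, some vitreous was drawn off, and platelet-rich plasma, the blood fraction that concentrates platelets, was injected into the vitreous cavity. The sources used here do not give the strain, the interval between injection and collection, a sham operation of the normal eyes, or whether the samples came from separate animals, so the p-values measure only the spread between these samples, which may be technical.

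Immediate early genes are switched on within minutes of a stimulus, without new protein being made, when MAP kinases act on factors that already sit on their promoters. FOS and JUN family proteins carry a basic leucine zipper, pair with each other and form AP-1, which binds DNA in genes of proliferation, matrix turnover and inflammation. EGR1 is a zinc finger factor, NR4A1 an orphan nuclear receptor and MYC a growth factor-induced regulator of cell growth. In the retina, FOS, JUN and EGR1 are known to respond to injury and light in neurons and in Mueller glia, the support cells that span the tissue.

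Levels are given as FPKM, the read count scaled to gene length and to the depth of the library, as the authors deposited it. Differences are given as log2 fold changes (written as log2 change below) of PVR against normal from edgeR's quasi-likelihood test on the raw counts, with p-values adjusted over all 18697 genes by the Benjamini-Hochberg method, and a gene is said to have risen or fallen only where this adjusted p was under 0.05. The 6 samples held between 31904593 and 43035080 counted reads. SAG, which encodes the photoreceptor arrestin and is a defining marker of retina, had an FPKM between 1341 and 1869 in all samples. Normal replicate 2 stood apart by its lens transcripts: 9 lens genes summed to an FPKM of 35107 there, against 13.2 and 16.2 in the other normal samples and 283 to 331 in PVR. Results without normal replicate 2 are therefore also given below for FOS, FOSL1, FOSL2, JUNB and EGR1. Normal replicate 3 differed from the other normal samples in other genes. Its oligodendrocyte markers summed to an FPKM of 420, against 85.9 and 196 in normal replicates 1 and 2. Its macrophage and microglia markers summed to 16.3, against 37 and 36.4.

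The 8 genes fell into those whose PVR samples all lay above the normal ones and those whose groups overlapped. FOS rose in PVR. FOSL2, JUNB and EGR1 were higher in 3 of 3 PVR samples than in any normal sample but missed the adjusted threshold. JUN, MYC, NR4A1 and FOSL1 overlapped between the groups. Thus 1 of 8 genes rose and 0 fell, where 1.09% of all genes tested rose and 0.615% fell. With a log2 change above 1 required as well, FOS remained, as did 0.69% of all genes tested. PVR samples lay entirely above the normal ones for 4 of 8 genes and entirely below for 0, where 17.0% of all genes tested did so upward and 26.7% in either direction. Leaving out a sample cannot make separated groups overlap, and no further member became separated without normal replicate 2, where 20.9% of all genes were, or without PVR replicate 3, where 27.8% were. The split did depend on normal replicate 3, without which JUN, MYC and FOSL1 would also lie entirely above. Their lowest PVR values were 40.2, 1.47 and 1.12 FPKM, and the highest values left in normal were 30.6, 1.08 and 1.11 FPKM. The share of all genes separated in that case was not counted. The median log2 change of the 8 genes was 0.71, against -0.01 for all genes tested.

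**Figure D1:**
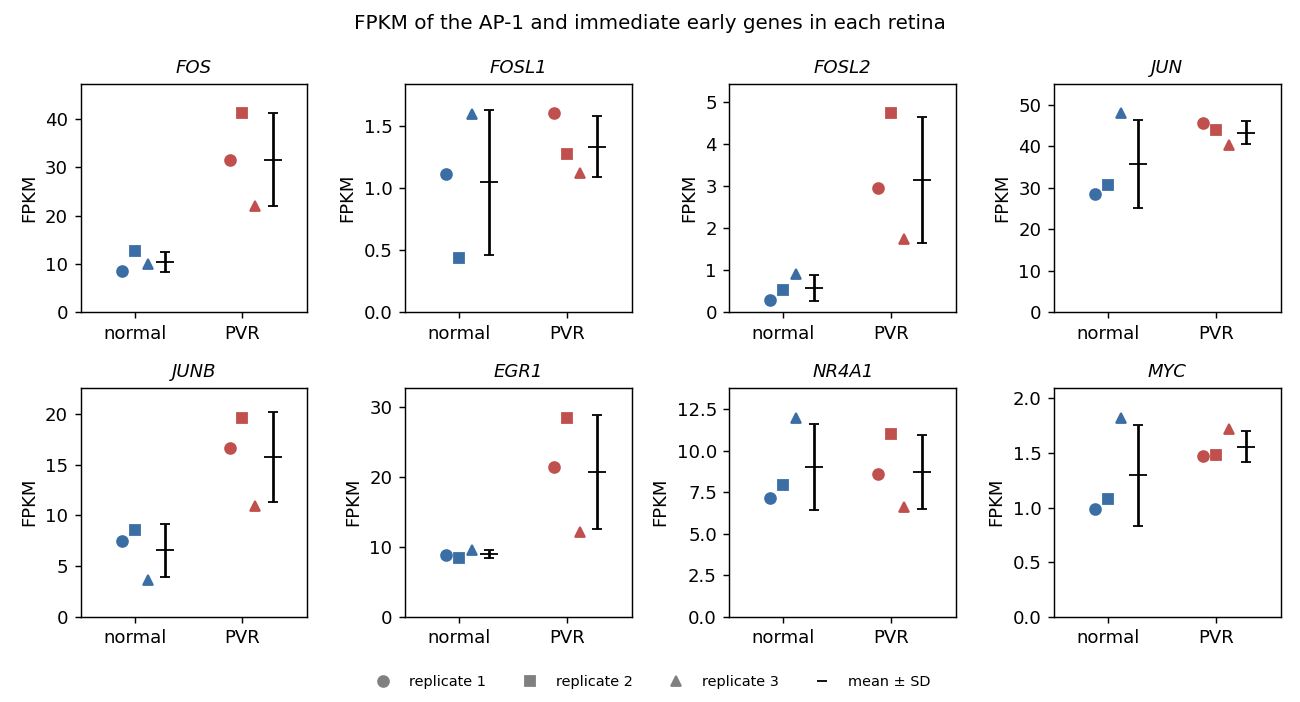
FPKM (vertical axis, linear from 0) of each of the 8 genes in the 3 normal (blue) and 3 PVR (red) retinas, where the marker shape gives the replicate number and the black bar the mean ± SD. For FOS, FOSL2, JUNB and EGR1 the lowest PVR sample, replicate 3, lies above the highest normal sample, whereas the groups overlap for FOSL1, JUN, NR4A1 and MYC.

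FOS encodes c-Fos, the partner of JUN proteins that gives AP-1 its fast and short-lived induction. Its FPKM was 8.62, 12.8 and 9.93 in normal replicates 1 to 3 and 31.5, 41.1 and 21.9 in PVR replicates 1 to 3. The groups were apart, with the lowest PVR sample 1.71 times the highest normal one. The mean was 10.4 ± 2.12 FPKM (SD, n = 3) in normal retinas and 31.5 ± 9.61 FPKM (SD, n = 3) in PVR, a ratio of 3.02. With a log2 change of 1.51 (standard error 0.24), FOS had an adjusted p of 0.0359 from edgeR and stood at position 170 of all genes ranked by p. This call depended on the number of samples: it was kept without PVR replicate 3 (adjusted p 0.0171 from edgeR) and lost when any other sample was left out. The adjusted p was then 0.116, 0.0688 and 0.0546 without normal replicates 1, 2 and 3, and 0.19 and 0.0747 without PVR replicates 1 and 2, all from edgeR. The log2 change itself stayed between 1.29 and 1.71 over all 15 alternatives, in 10 of which the adjusted p was under 0.05.

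FOSL2 encodes Fra-2, a slower and more lasting member of the FOS family. Its FPKM was 0.289, 0.533 and 0.913 in the normal retinas and 2.95, 4.73 and 1.75 in PVR. The highest normal sample was at 0.913 and the lowest PVR sample at 1.75, although the normal samples themselves spanned 3.16-fold and the PVR samples 2.71-fold. The counts behind these values were 75, 145 and 244 in normal retinas and 627, 1020 and 501 in PVR. FOSL2 had the highest log2 change of the 8 genes, 2.37 (standard error 0.48), with a 95% interval from 1.24 to 3.49 that is not adjusted for the number of genes. Its adjusted p was 0.0627 from edgeR. It was under 0.05 in 4 of 15 alternatives, namely DESeq2, no filter on low counts, and the tests without normal replicate 3 and without PVR replicate 3, and over all of them it ranged from 2.17e-07 to 0.243.

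FOSL1 encodes Fra-1, the family member best known from wound edges and invasive tumours. It was low, with 61, 25 and 90 counts in normal retinas and 72, 58 and 68 in PVR. For the lowest of these, 25 counts, the exact 95% Poisson interval, which covers counting error only, ran from 16.2 to 36.9 counts. Its FPKM was 1.11, 0.433 and 1.59 in normal and 1.6, 1.27 and 1.12 in PVR. The groups overlapped, and the log2 change of 0.29 had a 95% interval from -0.79 to 1.37 (adjusted p 0.747 from edgeR). Its sign rested on normal replicate 2, without which the log2 change was -0.07.

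JUN encodes c-Jun, which can pair with itself or with FOS proteins and is itself induced through AP-1 and JNK. It had the highest FPKM of the 8 genes in every sample, with 28.6, 30.6 and 47.9 in normal retinas and 45.7, 44 and 40.2 in PVR. Normal replicate 3 was above all 3 PVR samples, and the other normal samples were below them. For JUN the log2 change was 0.21 (standard error 0.18), with a 95% interval from -0.21 to 0.64 and an adjusted p of 0.526 from edgeR. Without normal replicate 1 it was 0.080, and without normal replicate 3 it was 0.47, with an adjusted p of 0.0756 from edgeR, where the 15 alternatives ranged from 0.0756 to 0.85. The length implied by its FPKM and counts was 1116 bases, shorter than that of the other members, so its level relative to other genes depends on the gene model used.

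JUNB, whose protein often restrains c-Jun while taking part in AP-1, had an FPKM of 7.48, 8.53 and 3.57 in normal retinas and 16.6, 19.6 and 10.9 in PVR. No PVR value fell within the normal range, but normal replicate 3 was well below the other normal samples, which spread the normal group 2.39-fold, against 1.8-fold for the PVR group. Its log2 change was 1.19 (standard error 0.35, 95% interval 0.37 to 2.01), with an adjusted p of 0.125 from edgeR. JUNB passed in 1 of 15 alternatives, DESeq2, with an adjusted p of 0.00256, where the range over the alternatives reached 0.353.

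**Figure D2:**
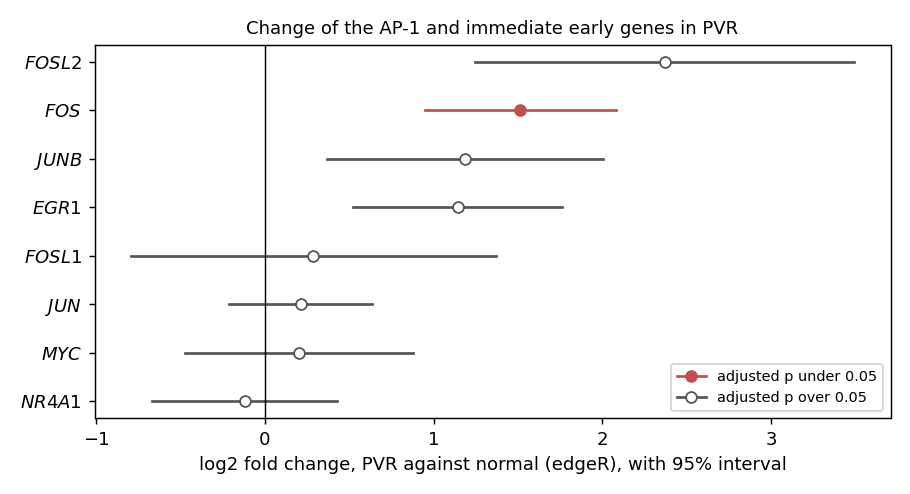
Log2 fold change of PVR against normal from edgeR (horizontal axis) for each of the 8 genes, with its 95% interval, which is not adjusted for the number of genes. FOS is the filled point with an adjusted p under 0.05. The intervals of FOSL2, JUNB and EGR1 lie above 0 without passing the adjusted threshold, and those of FOSL1, JUN, MYC and NR4A1 include 0.

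EGR1 had the tightest normal group. Its FPKM was 8.81, 8.41 and 9.53 in normal retinas, a spread of 1.13-fold, and 21.5, 28.5 and 12.2 in PVR, a spread of 2.34-fold. The lowest PVR sample was 1.28 times the highest normal one. Means were 8.91 ± 0.569 FPKM (SD, n = 3) and 20.7 ± 8.2 FPKM (SD, n = 3). EGR1 had a log2 change of 1.14 (standard error 0.26, 95% interval 0.53 to 1.76), with an adjusted p of 0.0792 from edgeR. Leaving out PVR replicate 3, the lowest PVR sample, gave 1.40 with an adjusted p of 0.01 from edgeR. Over the 15 alternatives the adjusted p ranged from 0.000125 with DESeq2 to 0.288, and EGR1 passed in 2 of these alternatives, with DESeq2 and without PVR replicate 3.

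NR4A1, a nuclear receptor without a known natural ligand that is induced together with FOS and EGR1 in many cells, had an FPKM of 7.18, 7.94 and 12 in normal retinas and 8.57, 11 and 6.6 in PVR. The highest and the lowest of the 6 values were normal replicate 3 and PVR replicate 3. The log2 change was -0.12 (standard error 0.24), with a 95% interval from -0.67 to 0.43 and an adjusted p of 0.792 from edgeR, and it changed sign without normal replicate 3 and without PVR replicate 3. MYC, a driver of cell growth and ribosome production, was low throughout, at 0.983, 1.08 and 1.82 FPKM in normal retinas and 1.47, 1.48 and 1.72 FPKM in PVR. Normal replicate 3 was again the highest of all samples. The log2 change of MYC was 0.20 (standard error 0.29), with a 95% interval from -0.47 to 0.88 and an adjusted p of 0.71 from edgeR. Without normal replicate 1 it was 0.045 and without normal replicate 3 it was 0.52. These intervals leave room for a change of either sign.

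Two-sided exact permutation tests of the mean FPKM gave p = 0.1 for FOS, FOSL2, JUNB and EGR1, the smallest p that 3 samples against 3 allow, p = 0.4 for FOSL1, JUN and MYC, and p = 0.9 for NR4A1. With DESeq2, the tool of the study's methods, FOS, FOSL2, JUNB and EGR1 all had an adjusted p under 0.05. By that tool 5.43% of the 20052 genes with an adjusted p were higher in PVR.

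The 4 genes whose groups did not overlap shared the order of their PVR samples: replicate 2 was highest, then replicate 1, and replicate 3 was lowest. NR4A1 had this order as well, so 5 of the 8 genes did, as did 31.7% of all genes tested and 48.3% of the 3173 genes whose PVR samples all lay above the normal ones. In the normal retinas, 6 of the 8 genes were highest in replicate 3, FOS and JUNB being the exceptions, against 42.2% of all genes tested.

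The order of levels, all in FPKM, differed between the groups. In normal retinas JUN was above FOS without overlap. FOS, NR4A1, EGR1 and JUNB followed with overlapping values between neighbours, then MYC, FOSL1 and FOSL2, also overlapping. In PVR the order was JUN, FOS, EGR1, JUNB, NR4A1, FOSL2, MYC and FOSL1. Values of neighbours overlapped from JUN down to NR4A1, although in each of the 3 PVR retinas JUN was above FOS, FOS above EGR1, EGR1 above JUNB and JUNB above NR4A1. FOSL2, last in normal retinas, was above MYC without overlap in PVR.

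The balance between the families was compared within each sample, which removes depth. FOSB and JUND were not matched to a row, so the sums, shares and ratios leave them out. FOS, FOSL1 and FOSL2 together had an FPKM of 10, 13.7 and 12.4 in normal retinas and 36.1, 47.1 and 24.7 in PVR. JUN and JUNB together had 36.1, 39.1 and 51.5 in normal retinas and 62.3, 63.6 and 51.1 in PVR, so that normal replicate 3 and PVR replicate 3 were nearly level. The ratio of the FOS family to the JUN family was 0.278, 0.351 and 0.242 in normal and 0.579, 0.74 and 0.484 in PVR. It was higher in 3 of 3 PVR samples, with means of 0.29 ± 0.0558 and 0.601 ± 0.13 (SD, n = 3 each; two-sided exact permutation test, p = 0.1, the smallest possible). Within the FOS family, FOS itself made up between 79.9% and 93% of the sum in all samples. FOSL2 made up 2.88%, 3.88% and 7.34% in normal retinas and 8.17%, 10% and 7.06% in PVR, and these ranges overlapped. The ratio of NR4A1 to EGR1 was 0.815, 0.945 and 1.26 in normal and 0.399, 0.387 and 0.542 in PVR, without overlap (p = 0.1 from the same exact test). FOS over EGR1 overlapped, with ratios from 0.979 to 1.52 in normal retinas and from 1.44 to 1.8 in PVR.

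**Figure D3:**
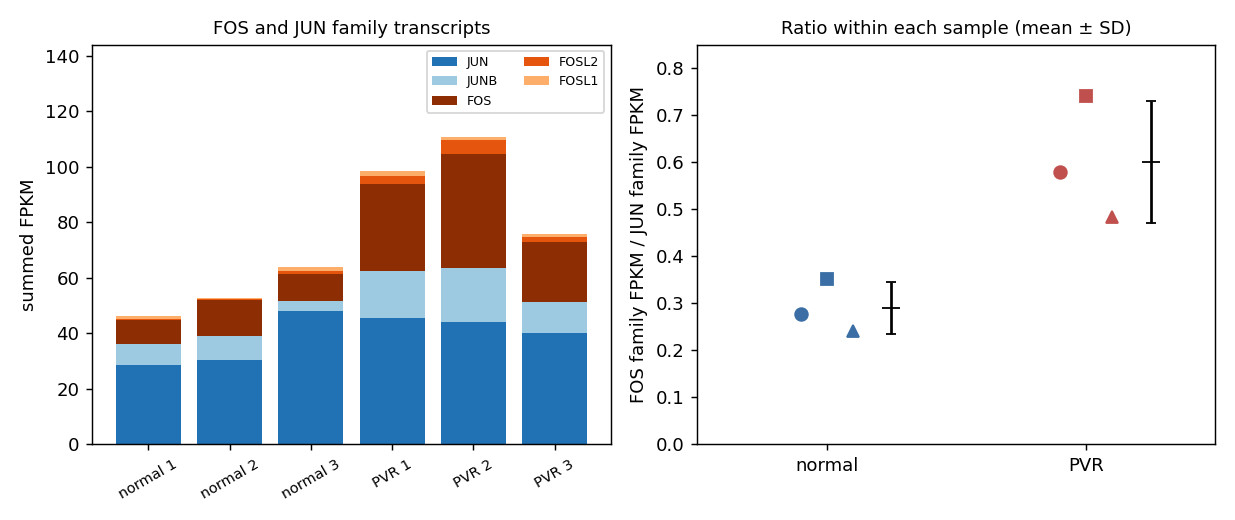
Left, summed FPKM of JUN, JUNB, FOS, FOSL2 and FOSL1 in each of the 6 samples as stacked bars. Right, the ratio of FOS family to JUN family FPKM in each sample with mean ± SD and marker shapes by replicate number, which is 0.242 to 0.351 in normal retinas and 0.484 to 0.74 in PVR.

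Genes around AP-1 were taken from 9 lists of the pathway. No gene passed the test in 8 of them, in edgeR with adjustment over all genes. Some of those that lay apart between the groups are named here, chosen after their values were seen, and the background for PVR samples entirely above the normal ones remains 17.0%, and 9.69% for entirely below. Among 8 tested basic leucine zipper partners of AP-1, ATF3, a stress-induced factor that pairs with JUN, was the only one entirely above, with 1.54, 2.32 and 2.34 FPKM in normal and 6.15, 6.4 and 3.86 FPKM in PVR. Its log2 change was 1.33 (adjusted p 0.0612 from edgeR). ATF2 and JDP2, the partners with the highest FPKM, had log2 changes of -0.14 and 0.01, and the median of the list was 0.00.

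Among 13 other immediate early transcription factors, 4 were entirely above in PVR: EGR2, CSRNP1, KLF6 and HES1. EGR2, a close relative of EGR1, had 13, 17 and 16 counts in normal retinas and 50, 87 and 38 in PVR, with a log2 change of 2.07 (adjusted p 0.0819 from edgeR). CSRNP1, a nuclear protein, had a log2 change of 1.07 (adjusted p 0.0875 from edgeR). KLF6 and HES1, the members with the highest FPKM, had 0.42 and 0.20. NR4A2 and NR4A3, relatives of NR4A1, had log2 changes of 0.02 and 0.07, and both overlapped between the groups. Of 14 immediate early effector genes, IER3, ZFP36L1 and MCL1 were entirely above. MCL1, a survival factor of the BCL2 family and the most abundant of the list per length, had 0.25, and the kinase gene SGK1 had 0.06.

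The kinases and factors upstream of immediate early genes had a median log2 change of 0.05 over 20 genes, with 8 entirely above and 3 entirely below. MAPK8 and MAPK3, which encode JNK1 and ERK1, had log2 changes of 0.08 and -0.38 (adjusted p 0.565 and 0.231 from edgeR). MAP2K1, the kinase MEK1 that activates ERK, had 5.49, 5.11 and 4.64 FPKM in normal and 11.3, 7.46 and 16.4 FPKM in PVR, with a log2 change of 1.14 (adjusted p 0.0973 from edgeR). Unlike for FOS, PVR replicate 3 was the highest sample for MAP2K1. MAP2K7, the kinase MKK7 that activates JNK, lay the other way, with 17.4, 16.6 and 17 FPKM in normal and 14.1, 11.6 and 13.9 FPKM in PVR and a log2 change of -0.44 (adjusted p 0.0744 from edgeR). SRF, the factor that binds the serum response elements of FOS and EGR1, had a log2 change of 0.02. Over 16 feedback inhibitors of MAP kinases the median was -0.02, with 2 entirely above and 2 entirely below. SPRY2 and SPRED3, inhibitors of signalling through RAS, were the 2 above, with log2 changes of 0.19 and 0.83 (adjusted p 0.339 and 0.167 from edgeR). DUSP4 and DUSP6, phosphatases that switch off ERK, were entirely below in PVR, with log2 changes of -0.58 and -0.43 (adjusted p 0.134 and 0.0903 from edgeR). DUSP8 and DUSP2, with the highest FPKM, had -0.19 and -0.01, and DUSP1, a classical immediate early phosphatase, had 0.23.

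NAB2, a corepressor that EGR1 induces and that limits its action, had 8.72, 7.48 and 6 FPKM in normal retinas and 13.1, 13.3 and 12.2 FPKM in PVR. The groups were apart, with a log2 change of 0.72 ± 0.15 (standard error) and an adjusted p of 0.0684 from edgeR. NAB1, its relative, had 0.09, and COP1, part of a ubiquitin ligase that degrades c-Jun, had -0.16. In the MYC and MAX network, 10 genes were tested with a median of -0.14, and MAX and MXI1, the most abundant per length, had -0.31 and -0.10. Of 14 MYC target genes, 13 had negative log2 changes, where 9551 of all 18697 genes tested did. The median of the 14 was -0.10, 2 were entirely below in PVR and none passed the test. PTMA and NME1 had -0.15 and 0.05. The most negative, LDHA, had an FPKM of 235 and 203 in normal replicates 1 and 2 but 4.19 in normal replicate 3 and 2.58 to 3.4 in PVR, so its log2 change of -5.66 (adjusted p 0.0744 from edgeR) rested on 2 samples.

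**Figure D4:**
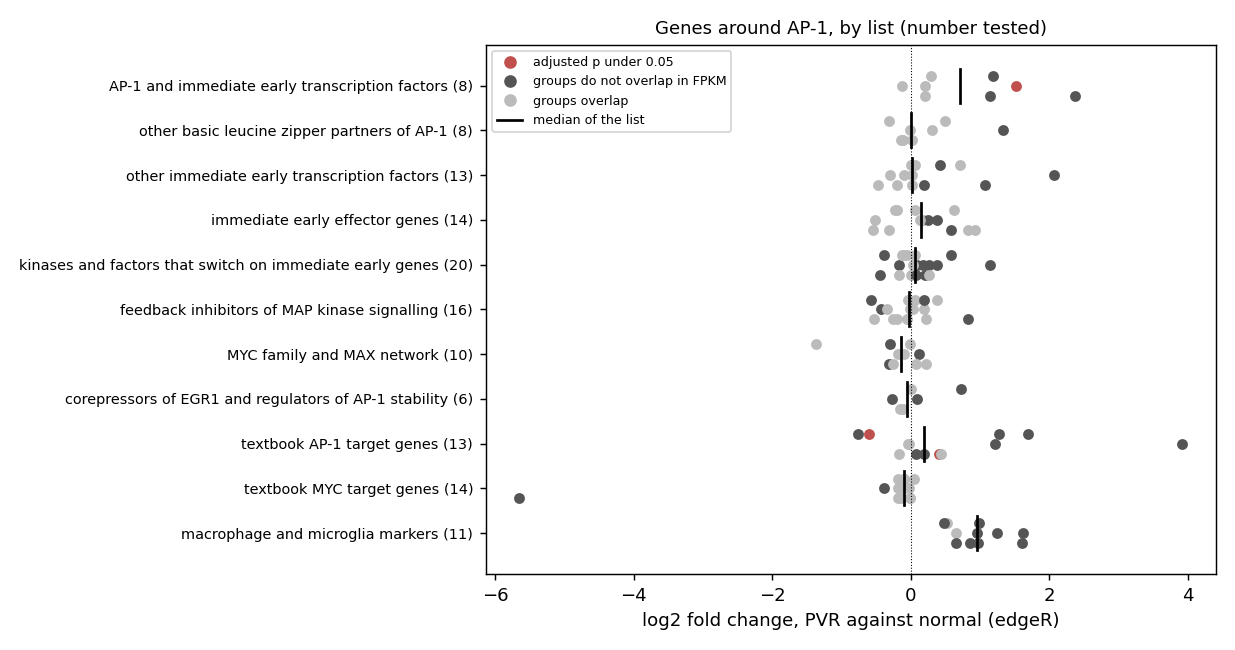
Log2 fold change of PVR against normal from edgeR for each tested gene of the 8 AP-1 and immediate early genes, the 9 pathway lists and the macrophage and microglia markers, 1 point per gene, with the number tested in parentheses and a black line at the median of each list. The red points are FOS, CD44 and VEGFA, the genes with an adjusted p under 0.05, the dark points are other genes whose groups did not overlap, and the pale points overlapped.

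Known target genes of AP-1 went both ways. Of 13 tested, 1 rose and 1 fell, where 1.7% of all genes changed. CD44, the hyaluronan receptor, rose from 21.8 ± 0.992 FPKM (SD, n = 3) to 30.4 ± 0.688 FPKM (SD, n = 3), a log2 change of 0.41 (adjusted p 0.0478 from edgeR). VEGFA, the main angiogenic factor of the retina, fell from 74 ± 6.94 FPKM (SD, n = 3) to 51.2 ± 2.61 FPKM (SD, n = 3), a log2 change of -0.61 (adjusted p 0.0394 from edgeR). Neither call was firm, as the adjusted p was under 0.05 in 6 of 15 alternatives for CD44 and in 8 of 15 for VEGFA. CD44 lost it with any single sample left out, when it was between 0.0606 and 0.257, and VEGFA with any single sample except normal replicate 3, when it was between 0.0548 and 0.225 (all from edgeR). VIM, an intermediate filament of glia and the most abundant of the list per length, had a log2 change of -0.17 and overlapped.

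Of the 13 targets, 7 were entirely above in PVR, CD44 among them, and 2 were entirely below, VEGFA and SPP1. TIMP1, an inhibitor of matrix metalloproteinases, had 7.37, 7.04 and 8.31 FPKM in normal and 18.7, 24.6 and 12.3 FPKM in PVR. Its log2 change was 1.21 (adjusted p 0.0634 from edgeR), and it passed in 2 of 15 alternatives, with DESeq2 and without PVR replicate 3. The PVR samples had the same order as those of FOS, as they did for 48.3% of the tested genes entirely above in PVR. LIF, a cytokine that protects photoreceptors after injury, had 6, 0 and 4 counts in normal retinas and 65, 51 and 24 in PVR (adjusted p 0.0792 from edgeR). MMP1, the interstitial collagenase whose promoter is a classical AP-1 target, was too low for the test, with 0, 0 and 2 counts in normal retinas and 15, 53 and 5 in PVR. SPP1, which encodes osteopontin, was entirely below in PVR, with a log2 change of -0.77 (adjusted p 0.0892 from edgeR).

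By likeness of pattern over the 6 samples, the genes nearest to FOS among 9593 named genes were DIXDC1, IGSF6, ANGPTL1, FHIT and SLC29A3. Likeness was the root mean square difference between log2 CPM profiles, each centred on its own mean. It was 0.15 for DIXDC1 and 0.18, 0.20, 0.21 and 0.21 for the others, against 0.31 for EGR1, 0.40 for JUNB and 0.64 for FOSL2. The median over the 9593 genes was 0.86, and a gene with a flat profile would be at 0.81. Because this measure counts the size of a change, genes near FOS have log2 changes near its own by selection. DIXDC1, which encodes a Wnt pathway protein, had 7.77, 8.17 and 7.61 FPKM in normal and 22, 30.6 and 17.1 FPKM in PVR. Its log2 change was 1.49 (adjusted p 0.0183 from edgeR). IGSF6, ANGPTL1, FHIT and SLC29A3 had log2 changes of 1.37, 1.31, 1.55 and 1.56, none of which passed the test (adjusted p between 0.0569 and 0.0744 from edgeR).

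Marker genes of other cell types were read in the same samples. Macrophage and microglia markers summed to an FPKM of 37, 36.4 and 16.3 in normal retinas and 54.7, 63.1 and 44.5 in PVR. All 11 tested markers had positive log2 changes, from 0.48 to 1.62, as did 9146 of the 18697 genes tested. Of these markers, 9 were entirely above in PVR, where 17.0% of all genes tested were. None was at 0 in any sample and none passed the test. The sum had the same order of PVR samples as FOS. So did 6 of the 11 markers, against 31.7% of all genes tested and 48.3% of those entirely above in PVR. Among Mueller glia markers, CLU rose (log2 change 1.07, adjusted p 0.00733 from edgeR). GLUL and RLBP1 fell (-1.11 and -0.89, adjusted p 0.0125 and 0.0294 from edgeR). Without passing, KCNJ10 was entirely below in PVR and ABCA8 entirely above (-0.36 and 0.47, adjusted p 0.108 and 0.0904 from edgeR). SLC1A3, DKK3 and AQP4 overlapped, with log2 changes of 0.08, 0.10 and -0.03. Thus 4 of the 8 markers had positive and 4 negative log2 changes. The sum of the 8 markers was 1072 to 1228 FPKM in normal retinas and 1383 to 1518 FPKM in PVR. Without CLU it was 671 to 779 FPKM in normal retinas and 491 to 561 FPKM in PVR. In that sum GLUL alone had means of 363 FPKM in normal retinas and 176 FPKM in PVR. The median log2 change of the 7 genes without CLU was -0.03. The 8 photoreceptor markers described here all had negative log2 changes, from -0.38 to -0.10 with a median of -0.28. RCVRN, which encodes recoverin, was entirely below in PVR, the other 7 overlapped, and none passed the test. The 8 endothelial markers summed to 93 to 96.6 FPKM in normal and 107 to 111 FPKM in PVR, a sum carried by KDR and FLT1. Without these it was 2.07 to 9.55 FPKM in normal and 0.951 to 1.02 FPKM in PVR. VWF and CDH5 fell, and CLDN5 and ERG were entirely below in PVR without passing. KDR and FLT1 were entirely above without passing, with log2 changes of 0.17 and 0.27. PECAM1 and TEK overlapped, with 0.23 and -1.29. Of the 8 log2 changes, 3 were positive and 5 negative, with a median of -2.44. The 8 oligodendrocyte markers summed to 85.9 to 420 FPKM in normal and 52 to 57.2 FPKM in PVR, and ERMN, SOX10 and MAG fell. The 7 platelet and red cell markers summed to 9.84 to 19.7 FPKM in normal and 8.6 to 13.5 FPKM in PVR. The part of these cells in the differences of FOS, FOSL2, JUNB and EGR1 was not tested, and in whole retina more cells of a type cannot be told apart from more RNA per cell.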

How the data were processed

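Per the paper's methods, the authors mapped the reads with HISAT2 to the rabbit build OryCun2.0 and took gene counts from htseq-count; the submitters' processing notes also name fastp. The deposited counts are raw, and the authors also deposited FPKM values. The strand setting, the annotation release and the tool behind the FPKM are not given in the sources used here, and the labels and the paper name different library kits (VAHTS Universal V6 and NEBNext Ultra II). Counts divided by FPKM gave 1 length per gene (largest relative difference 4.24e-09), so both units rest on the same reads.

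The counts went into edgeR 4.0.16 under R 4.3.3 (default low-count filter, TMM factors, quasi-likelihood test with condition as the only term). Standard errors are the log2 fold change divided by the square root of the F statistic. Permutation tests used SciPy 1.17.1, tables pandas 2.3.3 and figures matplotlib 3.10.9. Alternatives were DESeq2 1.42.0, limma 3.58.1 (voom, and log2(FPKM + 1) and log2(FPKM + 0.1)), RLE and upper-quartile factors, no filter, at least 10 counts in every sample, a block for the replicate number, and leaving out each sample in turn. The tests were checked on simulated counts of 18697 genes, 200 of them changed 2-fold or 4-fold. There edgeR found 101 of the 200 with 14 false calls, DESeq2 135 with 71 and limma-voom 94 with 16. Of 112 genes changed 2-fold, edgeR found 38 and DESeq2 60, so a miss does not show that a gene was unchanged.

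The members and lists were chosen with earlier results of these data known. Named by rule were the 8 genes, called genes of each list and its 2 genes of highest mean FPKM, and the 5 genes most like FOS among named genes with a mean log2 CPM of at least 3. Others were chosen after their values were seen. PDE6B, C1QA and C1QB were matched through RefSeq gene identifiers (mOryCun1.1, names only). No sequences or positions are given, since none of the files' build was used here. Intervals cover counting or sample error only. A result on 1 photoreceptor marker, and the sum over that list, are not reported here. Marker sums without their most abundant genes were added after seeing the data.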

Additional observations from a re-analysis of the deposited data

How the results depend on the processing

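The directions of FOS, FOSL2, JUNB, EGR1, JUN and MYC were the same in all 15 alternatives. Counts of separated genes without PVR replicate 3 or normal replicate 2 were chosen after seeing the data and stayed at 4, which leaving out a sample cannot lower. That count was not stable to every sample, since JUN, MYC and FOSL1 would also separate without normal replicate 3. For the number of the 8 genes that rose, 1 in the test of all samples, the alternatives gave 2 with no filter on low counts, 4 with DESeq2 and 0 to 3 with a sample left out. The log2 fold change with a sample left out was 1.29 to 1.71 for FOS, 0.045 to 0.52 for MYC, 0.080 to 0.47 for JUN, 0.89 to 1.45 for JUNB, 1.96 to 2.84 for FOSL2, 0.85 to 1.40 for EGR1, -0.070 to 0.71 for FOSL1 and -0.31 to 0.12 for NR4A1. Without normal replicate 2 it was 2.33 for FOSL2, 1.45 for JUNB and 1.12 for EGR1 (adjusted p 0.184, 0.189 and 0.202 from edgeR). FOSL1 changed sign without normal replicate 2 (-0.070), and NR4A1 without normal replicate 3 (0.12) and without PVR replicate 3 (0.04), none past the threshold. FOSL2 passed with no filter (2.36) and DESeq2 (2.37), and JUNB (1.19) and EGR1 (1.14) with DESeq2, where the cause was not tested. Over all genes, 203 rose and 115 fell. With DESeq2 these were 1088 and 667, with the replicate block 62 and 30, and with a sample left out 16 to 516 and 6 to 250. The genes that fell numbered 74 with limma-voom, 55 on log2(FPKM + 1) and 66 on log2(FPKM + 0.1).

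With DESeq2, 1 of 10 zipper partners, 2 of 14 other immediate early factors and 2 of 20 upstream kinases and factors passed the threshold. So did 2 of 16 feedback inhibitors, 1 of 6 EGR1 and AP-1 regulators, 7 of 17 AP-1 targets and 1 of 14 MYC targets. These totals count the genes of each list that were found. Over all genes, DESeq2 called 1088 higher and 667 lower of the 20052 with an adjusted p. Of the AP-1 targets, 2 passed in the test of all samples, 1 with no filter, with limma-voom and on log2(FPKM + 1), 0 with the replicate block and 0 to 2 with a sample left out. On log2(FPKM + 0.1) 1 EGR1 and AP-1 regulator passed. With a sample left out, 0 to 1 zipper partners, other immediate early factors and MYC targets passed.

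The replicate block left FOS past the threshold (log2 fold change 1.49, adjusted p 0.0307 from edgeR). Deviations of samples with the same number correlated at -0.0129, 0.0734 and 0.0417 for numbers 1 to 3. Not every sample correlated best with its own number. With 3 samples a group, correlations this small cannot decide whether samples of the same number were paired. Depth limits LIF and MMP1, with few or 0 counts in normal retinas. For FOSL1 the Poisson intervals of normal replicates 2 and 3 did not overlap, so the spread between samples exceeded counting error.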
